A study of Mus musculus with 15 samples.

Results

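Adult neural stem cell (aNSC) cultures in which both Trrap alleles were open to deletion were compared with cultures that carried 1 floxed allele and received no drug. The outer comparison sets 5 libraries of Trrap Fl/Fl cultures given 4-hydroxytamoxifen (4-OHT) against 5 libraries of Trrap Fl/+ cultures without treatment, which is 10 of the 15 libraries of the series. Both genotype and treatment differ between these groups. The remaining 5 libraries, Trrap Fl/+ cultures given 4-OHT, form a middle group that shares its genotype with the untreated cultures and its treatment with the Fl/Fl cultures. The members were chosen by genotype and treatment label alone, and all genes were tested. The cells were isolated at an age of 2 months from the subventricular zone of mice of the mixed C57BL6/J-129sv background and were grown in suspension with EGF and bFGF. Every culture, the untreated ones included, carried the Rosa26-CreERT2 transgene, a Cre recombinase that is known to be activated by 4-OHT and is expressed from a ubiquitous locus. Cre activity was not measured. The labels give 5 days of treatment, whereas the study's methods describe a shorter exposure followed by drug-free medium. The study calls its samples biological replicates, but the labels do not say that libraries with different numbers came from separate animals, so p-values measure the spread between these cultures. Each group held 3 libraries labelled male and 2 labelled female.

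Trrap is a very large adaptor protein without catalytic activity. It is a shared subunit of several histone acetyltransferase (HAT) complexes, which acetylate histone tails at promoters and are recruited there by transcription factors such as Myc and E2F. Neural stem cells of the subventricular zone divide in response to EGF and FGF and can form neurons, astrocytes and oligodendrocytes. Notch signalling through Hes genes is known to hold them undifferentiated.

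The libraries held 25720034 to 32187097 assigned counts. Levels are given as CPM, a gene's counts scaled to a common library total, with library sizes adjusted by the trimmed mean of M values (TMM), and 3 counts in a library, taken as the limit of detection, correspond to 0.0932 to 0.119 CPM. That limit covers counting error only. 2 Fl/Fl libraries stood apart. The library labelled Fl/Fl 39 is labelled female but had 0.313 CPM of Xist, 54.0 CPM of Ddx3y and 61.2 CPM of Eif2s3y, against 335, 0.0387 and 0.155 CPM in Fl/Fl 37, the other Fl/Fl library labelled female. Fl/Fl 37 had by far the highest levels of myelin genes, with 1013 CPM of Mbp against 81.0 to 154 CPM in the remaining Fl/Fl libraries. In the middle group the library labelled Fl/+ 36, a male, had 74.7 CPM of Xist beside 52.9 CPM of Ddx3y. The shares of counts on mitochondrial genes were 1.36% to 2.19% in Fl/Fl 4-OHT, 0.849% to 1.74% in Fl/+ 4-OHT and 1.72% to 3.56% in untreated libraries.

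The targeted gene was examined first. Trrap (GRCm38 chromosome 5, 144767732 to 144859778) had 193, 214, 184, 179 and 181 CPM in untreated Fl/+ libraries 19, 24, 26, 35 and 36. It had 138, 204, 171, 165 and 142 CPM in the Fl/+ 4-OHT libraries of the same numbers and 92.9, 115, 142, 89.2 and 82.8 CPM in Fl/Fl 4-OHT libraries 27, 28, 29, 37 and 39. No Fl/Fl library reached the untreated range. The group means were 104 ± 24.2 and 190 ± 14.3 CPM (SD, n = 5 each), with a log2 fold change of -0.85 (SE 0.142, adjusted p = 0.00139). An exact permutation test, two-sided, gave p = 0.00794, the smallest value possible with 5 against 5 libraries. Against the untreated group, the Fl/+ 4-OHT group had a log2 fold change of -0.21 (SE 0.110, adjusted p = 0.234), and its range overlapped with both other groups. With the shared numbers of the Fl/+ libraries treated as pairs, it was -0.22 (SE 0.0832, adjusted p = 0.0838), and all 5 treated libraries lay below the untreated library of the same number. The counts cover the whole gene, so transcripts without the floxed segment were counted too.

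The outer comparison called 4620 of 15032 genes (30.7%), where called means that the quasi-likelihood test of edgeR gave an adjusted p below 0.05. Expression was higher in Fl/Fl 4-OHT for 2357 genes (15.7%) and lower for 2263 (15.1%). When only library size was used for scaling, 3150 genes were higher and 1603 lower, and the median of all genes moved from 0.00 to 0.09 on the log2 scale. A change of at least 2-fold was found for 1431 genes (9.52%), of which 958 were higher and 473 lower. At 13 of these genes 1 group had no more than 3 counts in any library, so that the fold itself is not fixed. The 5 libraries of one group all lay above the 5 of the other for 3469 genes, 23.1% of those tested. Without Fl/Fl 37 the comparison called 4033 genes and without Fl/Fl 39 it called 3942. Without both it called 3171.

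The middle group showed part of these changes. Fl/+ 4-OHT against untreated Fl/+ cultures called 2044 of 14821 genes (13.8%), 1088 of them higher (7.34%) and 956 lower (6.45%). Fl/Fl 4-OHT against Fl/+ 4-OHT cultures called 4773 of 15036 genes (31.7%), 2520 higher (16.8%) and 2253 lower (15%). Each of these comparisons shares 5 libraries with the outer one, so the shared calls described here are not independent of it. Among the 4620 genes of the outer comparison, 1159 (25.1%) were called in the same direction in Fl/+ 4-OHT against untreated cultures. The other count, of genes called in the same direction between the treated groups, was 2421 (52.4%). Treating the shared numbers of the Fl/+ libraries as pairs raised the calls for 4-OHT in Fl/+ cultures to 3809 (25.7%) and the shared calls to 1653. Values from this paired fit, called the replicate block, are given beside a result where they change the call or the count that is printed.

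Split by class, 954 genes of the outer comparison (20.6%) were also called in the middle group and not between the treated groups. A further 2225 (48.2%) were called between the treated groups and not in the middle group, 159 (3.44%) were called in the same direction in all 3 comparisons, and 1199 (26.0%) were called in neither. Another 37 genes were called in the opposite direction in the middle group and 46 in the opposite direction between the treated groups. 130 genes called in the outer comparison were too low to be tested in the middle group. With the replicate block the class called in all 3 comparisons held 287 genes, that opposite in the middle group 102, and that called between the treated groups and not in the middle group 2032. A gene missing from a comparison's calls may still have changed there. For the 2357 genes higher in Fl/Fl 4-OHT the median log2 fold change was 0.82 in the outer comparison, 0.31 in Fl/+ 4-OHT against untreated and 0.47 between the treated groups. For the 2263 lower genes the medians were -0.61, -0.22 and -0.36. Each median is over the genes tested in that comparison, which were 2231 of the 2357 and 2259 of the 2263 in Fl/+ 4-OHT against untreated and 2350 and 2234 between the treated groups. The medians over all genes of the outer comparison, taken in the same way, were 0.00, -0.01 and 0.02.

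**Figure D1:**
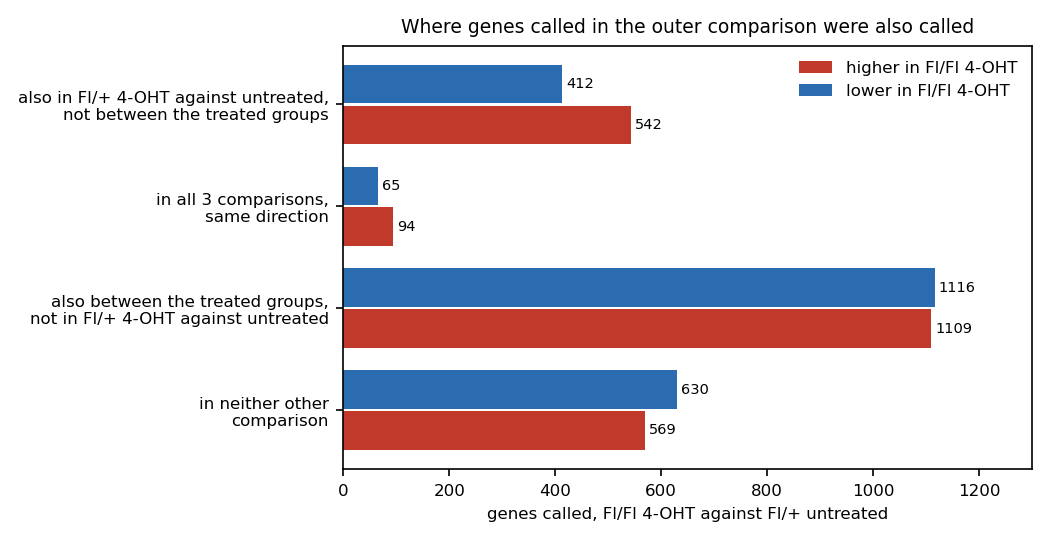
Bars give the number of genes called in Fl/Fl 4-OHT against untreated Fl/+ cultures (x axis), split by whether they were also called in the same direction in the other 2 comparisons; red, higher in Fl/Fl 4-OHT; blue, lower. The longest bars, 1109 and 1116 genes, are those called also between the treated groups but not in Fl/+ 4-OHT against untreated cultures.

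Counts of the gene lists that follow are to be read against the 30.7% of all genes called in the outer comparison and the 13.8% in the middle group. Of the 6 largest rises among genes whose groups did not overlap, 5 were also called in the middle group. Tmc3 (chromosome 7, 83584927 to 83625614), a member of the transmembrane channel-like family, had 0.941, 0.314, 0.874, 0.385 and 0.331 CPM in the untreated libraries. It had 56.7, 26.1, 28.6, 47.9 and 33.3 CPM in Fl/+ 4-OHT and 25.8, 50.7, 75.2, 85.2 and 70.8 CPM in Fl/Fl 4-OHT libraries. Both treated groups lay far above the untreated one and overlapped with each other. Tmc3 rose by 6.75 on the log2 scale (SE 0.435, adjusted p = 1.09e-05) in the outer comparison and by 6.07 (SE 0.382, adjusted p = 3.03e-05) in the middle group, against 0.69 (adjusted p = 0.108) between the treated groups.

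H19, an imprinted noncoding RNA on chromosome 7 (142575529 to 142578143), had 0.368 to 2.72 CPM in untreated, 26.0 to 105 CPM in Fl/+ 4-OHT and 9.91 to 337 CPM in Fl/Fl 4-OHT libraries. The value of 337 CPM was that of Fl/Fl 37, and the remaining Fl/Fl values were 9.91 to 62.0 CPM. H19 rose by a log2 fold change of 6.61 (SE 1.07, adjusted p = 0.00122), by 5.26 without Fl/Fl 37 (adjusted p = 0.000841) and by 7.43 without untreated library 24 (adjusted p = 0.00217). The rise in Fl/+ 4-OHT was 5.59 (SE 0.649, adjusted p = 0.000614). Of the 27 listed imprinted genes, 21 were tested. 4 rose and 5 fell in the outer comparison with a median of 0.02, and 4 rose and 0 fell in the middle group, where 13.8% of all genes were called. With the replicate block 8 rose and 3 fell there. Meg3 and Rian, maternally expressed noncoding RNAs of 1 cluster on chromosome 12, rose together with H19 in both comparisons, by 3.43 and 3.11 in the outer one and by 2.85 and 3.04 in the middle group. Zfp57, a zinc finger protein that maintains methylation at imprinted loci, fell by 1.85 on the log2 scale in the outer comparison and had a difference of 0.73 (adjusted p = 0.206) in the middle group, where it rose by 0.77 (adjusted p = 0.0431) with the replicate block.

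Sox7, a transcription factor of the SoxF group (chromosome 14, 63943673 to 63950732), was at 0 to 0.253 CPM in untreated, 0.918 to 9.43 CPM in Fl/+ 4-OHT and 2.61 to 10.4 CPM in Fl/Fl 4-OHT libraries. Its log2 fold changes were 5.61 (SE 0.669, adjusted p = 0.000237) and 5.75 (SE 0.774, adjusted p = 0.00128) against the untreated group. The treated groups overlapped, with a difference of -0.14 (adjusted p = 0.862).

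Falls of the same kind were seen at En1, Cyp2j13 and Bmp3. En1 (chromosome 1, 120602418 to 120607992), a homeobox gene of midbrain and hindbrain patterning, had 2.86, 1.53, 4.41, 7.43 and 6.77 CPM in untreated libraries. It had 0.0338 to 1.09 CPM in Fl/+ 4-OHT and 0.102 to 0.280 CPM in Fl/Fl 4-OHT libraries. En1 fell by 4.72 on the log2 scale (SE 0.510, adjusted p = 0.000144), and by 3.54 in the middle group (adjusted p = 0.00642). Bmp3, a member of the BMP family that opposes BMP signalling, fell by 3.10 (SE 0.603, adjusted p = 0.00317) and by 3.45 (SE 0.587, adjusted p = 0.00383). In the outer comparison Bmp3 fell by 2.54 without untreated library 24, and by less, though still called, with sex as a covariate and without Fl/Fl 39. Cyp2j13, a cytochrome P450, fell by 3.84 (SE 0.702, adjusted p = 0.00229) and by 3.05 (SE 0.746, adjusted p = 0.0212), with 1.33 to 18.8 CPM in untreated and 0.313 to 0.688 CPM in Fl/Fl 4-OHT libraries. Without untreated library 24, the highest, Cyp2j13 fell by 3.20, and by 3.07 with sex as a covariate and without Fl/Fl 39.

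Myelin genes were among the rises shared with the middle group. Of 17 oligodendrocyte lineage markers tested, 8 rose, 1 fell, the transcription factor gene Olig1 (by 0.36), and 8 did not pass the test, with a median log2 fold change of 1.42. The middle group had 8 rises and 0 falls, with a median of 1.37, or 9 rises and 1 fall with the replicate block. The fall was again Olig1, by 0.38 (adjusted p = 0.0253), lower in all 5 pairs. Between the treated groups 1 rose and 0 fell, with a median of 0.01. Mag, a myelin adhesion molecule, had 0.184 to 2.83 CPM in untreated, 3.04 to 24.9 CPM in Fl/+ 4-OHT and 7.36, 11.3, 15.4, 151 and 13.6 CPM in Fl/Fl 4-OHT libraries 27, 28, 29, 37 and 39. Its mean in Fl/Fl 4-OHT without Fl/Fl 37 was 11.9 ± 3.47 CPM (SD, n = 4). Mag rose by 5.29 (SE 1.07, adjusted p = 0.00387), by 3.56 without Fl/Fl 37 (adjusted p = 0.00302) and by 6.15 without untreated library 26.

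Mbp, the basic protein of myelin, rose by 4.18 (SE 0.921, adjusted p = 0.00610), by 2.82 without Fl/Fl 37 (adjusted p = 0.00704) and by 5.01 without untreated library 26. Mobp, another myelin protein, rose by 4.64, and by 4.04 without that library. Mog, a protein of the outer myelin surface, had no more than 2 counts in any untreated library and a mean of 2.04 CPM in Fl/Fl 4-OHT. That mean is 18.8-fold higher than 3 counts in an untreated library of average depth. The summed level of the 17 markers was 3607 to 5202 CPM in untreated, 3643 to 5371 CPM in Fl/+ 4-OHT and 3861 to 6120 CPM in Fl/Fl 4-OHT libraries, the last value being Fl/Fl 37. Without it the Fl/Fl maximum was 5025 CPM, so that the summed levels overlapped in all 3 groups. More cells of a type and more RNA per cell cannot be told apart in these bulk samples.

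**Figure D2:**
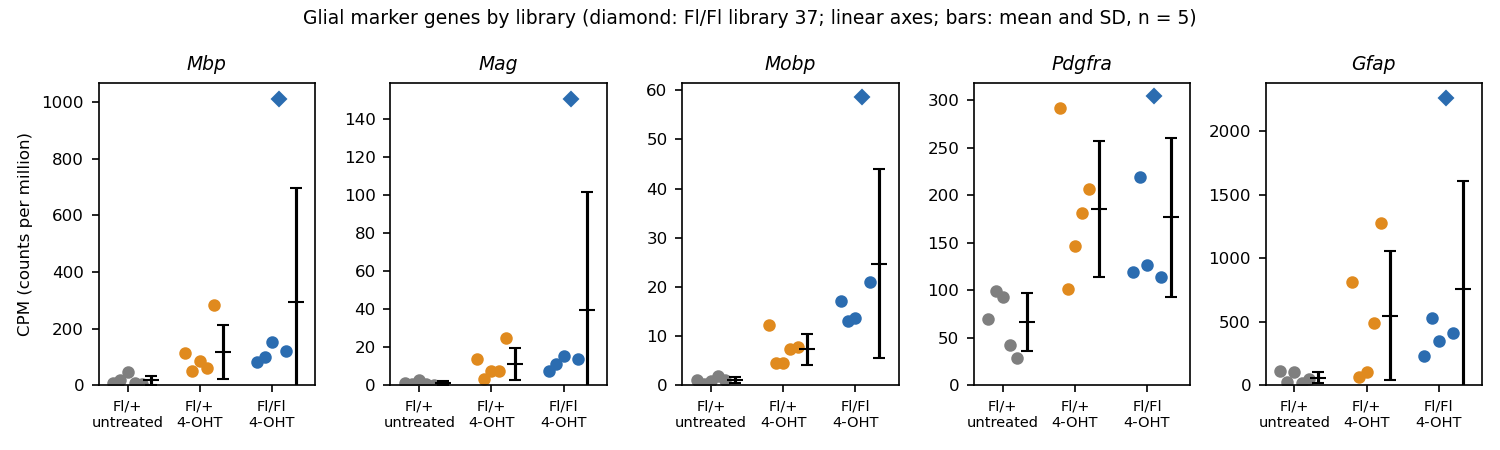
Each point is the CPM (y axis, linear) of 1 library for the myelin genes Mbp, Mag and Mobp, the progenitor receptor Pdgfra and the astrocyte filament gene Gfap in the 3 groups; bars give mean and SD of 5 libraries. Fl/Fl library 37, drawn as a diamond, is the highest of the Fl/Fl 4-OHT group in every panel, with 1013 CPM of Mbp and 2264 CPM of Gfap.

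Astrocyte markers moved in both directions. Of 12 tested, 2 rose and 4 fell, with a median of -0.17. Gfap, the astrocyte intermediate filament, had 14.5 to 108 CPM in untreated, 63.7 to 1279 CPM in Fl/+ 4-OHT and 231 to 2264 CPM in Fl/Fl 4-OHT libraries. Gfap rose by 3.72 (SE 0.772, adjusted p = 0.00441), by 2.74 without Fl/Fl 37 (adjusted p = 0.00556), and by 3.25 in the middle group (adjusted p = 0.0283). Clu, a secreted chaperone, rose by 1.78 in the outer comparison, and in the middle group by 1.16 with the replicate block (adjusted p = 0.0123). Gjb6, a gap junction protein, and S100b, a calcium-binding protein, fell by 1.75 and 1.49 there and by 1.93 and 1.91 in the middle group.

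Genes of hypoxia and glycolysis were called in both comparisons with the untreated group. Of 22 tested, 7 rose and 1 fell in the outer comparison (36.4%, beside 30.7% of all genes), with a median of 0.64, and 13 rose and 1 fell in the middle group, with a median of 1.11, or 16 and 1 with the replicate block. Between the treated groups 1 rose and 6 fell, with a median of -0.51. Car9, a carbonic anhydrase induced by low oxygen, had 0.0700 to 1.29 CPM in untreated, 6.40 to 20.3 CPM in Fl/+ 4-OHT and 3.26 to 23.3 CPM in Fl/Fl 4-OHT libraries. It rose by 4.54 (SE 0.843, adjusted p = 0.00250) and in the middle group by 4.63 (SE 0.684, adjusted p = 0.00195). Pfkfb3, which sets the level of an activator of glycolysis, rose by 1.95 and 2.13. The glucose transporter Slc2a3 rose by 1.43 and 2.01, and the hexokinase Hk2 by 1.29 and 2.41. The call of Hk2 in the outer comparison was lost without untreated library 26 or 36 or without Fl/Fl 28, 29 or 37. The member that fell was Aldoc, an aldolase that also marks astrocytes, by 0.36. The list count of 8 in the outer comparison was 5 without untreated library 26 or without Fl/Fl 28, 29 or 37. It was 13 without untreated library 24 or with the number series as a covariate.

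Targets of p53 gave a like pattern. Of 22 tested, 10 rose and 1 fell in the outer comparison (median 0.45), 9 rose and 0 fell in the middle group (median 0.53, and 13 rises with the replicate block), and 0 rose and 3 fell between the treated groups (median -0.06). Without Fl/Fl 37 and 39 the list count of 11 was 7. Cdkn1a, the p21 inhibitor of cyclin-dependent kinases, had 260, 188, 173, 234 and 265 CPM in untreated libraries, 371 to 573 CPM in Fl/+ 4-OHT and 346 to 424 CPM in Fl/Fl 4-OHT libraries. Neither treated group overlapped with the untreated one. The rise was 0.79 (SE 0.128, adjusted p = 0.00119) in the outer comparison and 1.07 (SE 0.167, adjusted p = 0.00246) in the middle group. Btg2, an antiproliferative gene, fell by 0.53 in the outer comparison. The death receptors Tnfrsf10b and Fas rose by 1.54 and 1.36 in the outer comparison and by 1.67 and 1.09 in the middle group. Gdf15, a secreted stress factor, rose by 1.76 in the outer comparison, with a middle-group difference of 0.69 (adjusted p = 0.350).

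AP-1 and immediate early genes rose at 10 of 16 and fell at 1, Jund, with a median of 0.82. The middle group had 4 rises and 0 falls, with a median of 0.69, and 8 rises with the replicate block. Ier3, an early response gene, rose by 1.84 and 2.04 in these comparisons, and the AP-1 subunit Fosl2 by 1.31 and 1.44. Arc, an activity-regulated gene, rose by 1.75 in the outer comparison, by 0.86 between the treated groups and, with the replicate block, by 0.93 in the middle group. The AP-1 subunit Fosl1 rose by 1.95, and by 1.36 without Fl/Fl 37. Without Fl/Fl 37 and 39 the list count of 11 fell to 5. Of 16 genes of EGF and FGF feedback 5 rose and 0 fell, about the 30.7% of all genes called, and 3 were called without Fl/Fl 37 and 39. The rises were led by the EGF receptor ligands Ereg (3.86, and 4.88 without untreated library 35) and Hbegf (1.95).

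Collagens rose at 8 of 20 genes and fell at 1, Col5a2, with a median of 0.72, and 6 rose and 0 fell in the middle group, or 10 and 2 with the replicate block. Col18a1, a basement membrane collagen, had 2.10 to 7.60 CPM in untreated, 40.0 to 98.7 CPM in Fl/+ 4-OHT and 35.2 to 97.4 CPM in Fl/Fl 4-OHT libraries. The rise was 3.98 (SE 0.431, adjusted p = 0.000144) and in the middle group 4.26 (SE 0.424, adjusted p = 0.000318). Col6a1 and Col12a1 rose by 2.42 and 2.01 in the outer comparison, and Col6a1 by 1.62 without Fl/Fl 37. In the middle group they rose by 1.64 and 3.05 (adjusted p = 0.00862 and 0.00626). Mitochondrially encoded genes fell at 3 of 9 and rose at none, with a median of -0.77, and fell at 5 in the middle group with a median of -0.98, or at 6 with the replicate block. The list count in the outer comparison was 5 with DESeq2 or without untreated library 19 or 36, and 0 without Fl/Fl 37 and 39.

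A second set of changes was found mainly in the outer comparison and between the treated groups, with few calls in the middle group without the replicate block. Named genes that were also called in the middle group by that fit are given as such, and some were too low to be tested there. Stathmins, which bind tubulin dimers and promote microtubule turnover, fell at 3 of 3 genes tested, with a median of -1.73. The medians of the same genes were 0.02 in the middle group, where 0 were called, or 1 with the replicate block, and -2.09 between the treated groups, where 3 fell. Stmn3 (chromosome 2, 181306459 to 181314500) had 94.6, 67.3, 95.3, 79.9 and 71.4 CPM in untreated libraries and 99.6, 53.4, 90.3, 60.0 and 70.7 CPM in Fl/+ 4-OHT libraries. It had 18.0, 22.1, 17.6, 18.6 and 10.9 CPM in Fl/Fl 4-OHT libraries. The Fl/Fl range lay below both others, which overlapped. Stmn3 fell by 2.22 (SE 0.177, adjusted p = 3.84e-05).

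Stmn4 (chromosome 14, 66344296 to 66361680) had 34.4, 21.6, 50.8, 18.2 and 14.1 CPM in untreated, 29.5 to 73.7 CPM in Fl/+ 4-OHT and 7.30, 5.78, 6.75, 18.1 and 3.82 CPM in Fl/Fl 4-OHT libraries. The groups of the outer comparison overlapped through Fl/Fl 37, at 18.1 CPM. Stmn4 fell by 1.73 (SE 0.451, adjusted p = 0.0141), and by 2.22 without that library. Its middle-group difference was 0.62 (adjusted p = 0.280), and it rose by 0.69 with the replicate block (adjusted p = 0.00245). Stmn1 (chromosome 4, 134468320 to 134473843) fell by 1.21 (SE 0.222, adjusted p = 0.00240), from 12.2 to 20.8 CPM in untreated to 4.72 to 8.85 CPM in Fl/Fl 4-OHT libraries. Stmn2 was too low to be tested, with at most 1.31 CPM in any library. The transcription factor Sp1, named because the study asks about its targets, had 83.4 to 133 CPM in untreated and 97.2 to 123 CPM in Fl/Fl 4-OHT libraries. In the outer comparison Sp1 differed by 0.08 (SE 0.125, adjusted p = 0.683). In Fl/+ 4-OHT libraries Sp1 had 114 to 146 CPM, with a difference from untreated of 0.39 (adjusted p = 0.0670), or 0.40 with the replicate block (adjusted p = 0.0225). Between the treated groups Sp1 fell by 0.31 (adjusted p = 0.0156).

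The promoter of Stmn3, the stathmin with the largest fall, is shown from RefSeq on GRCm38.p6, with 250 bases before and 50 after the start. The GC box GGGCGG, the core of Sp1 sites, is not in these letters on either strand, so none is in capitals. Other forms of the site, and sequence outside the 300 bases shown, were not searched. Neither primer that the study gives for its Stmn3 promoter assay is in these letters on either strand, so the window and the assayed region differ. The study shows an Sp1 consensus in its probe and reports less Sp1 binding there after Trrap deletion. A window of this kind was found for 11028 of 15018 genes. GGGCGG on either strand was in 65.3% of them, in 61.2% of those called higher and in 70.1% of those called lower. Stmn1 and Stmn4 had no entry.
Stmn3 (chr2:181314451-181314750, minus strand): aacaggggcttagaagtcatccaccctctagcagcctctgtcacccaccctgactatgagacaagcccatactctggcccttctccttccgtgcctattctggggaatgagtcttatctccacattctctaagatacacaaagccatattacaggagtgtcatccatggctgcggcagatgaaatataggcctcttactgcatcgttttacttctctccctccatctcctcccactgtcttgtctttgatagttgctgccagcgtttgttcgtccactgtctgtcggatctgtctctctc

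**Figure D3:**
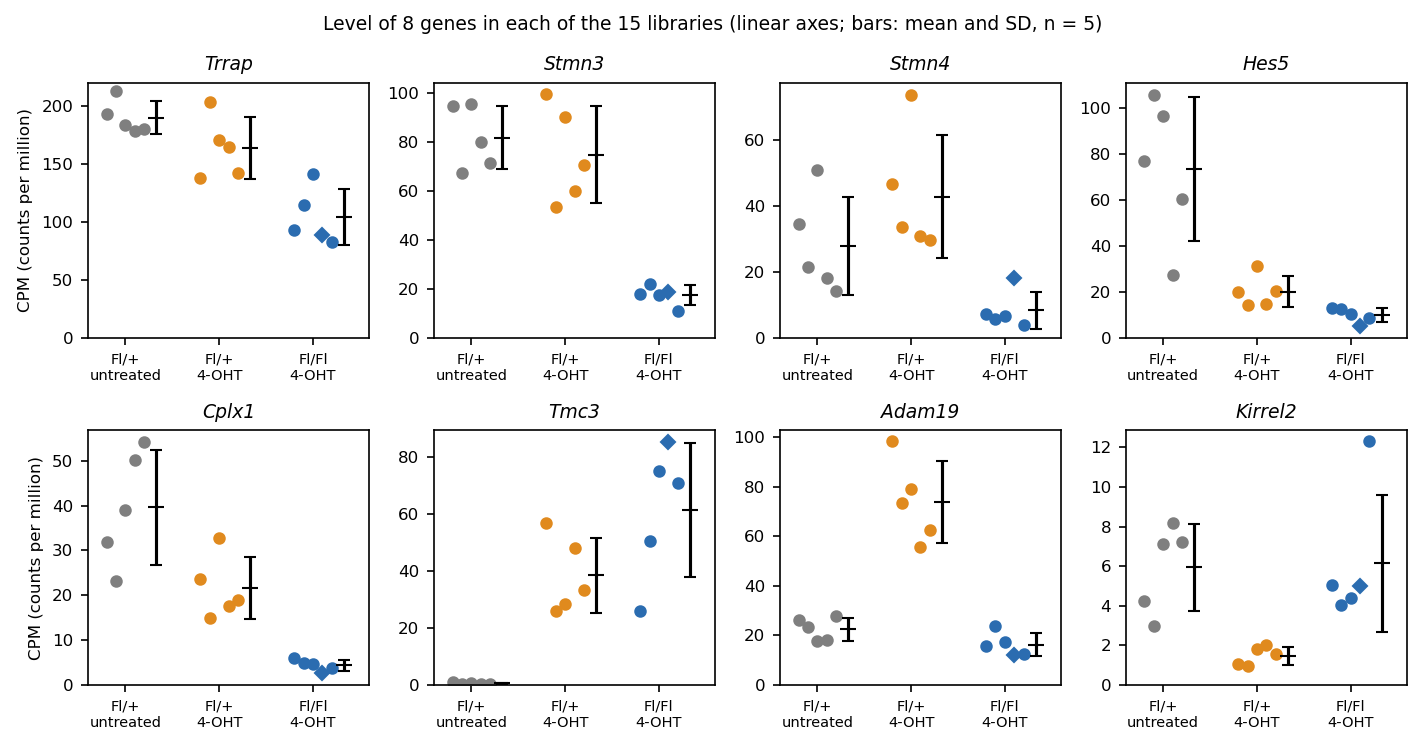
Each point is the CPM (y axis, linear) of 1 library for 8 genes in the 3 groups; bars give mean and SD of 5 libraries, and the diamond is Fl/Fl library 37. Stmn3 is lower in Fl/Fl 4-OHT than in both Fl/+ groups, Tmc3 is near 0 in untreated cultures alone, Hes5 and Cplx1 fall in steps, and Adam19 and Kirrel2 differ in the middle group from both others.

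Cholesterol genes fell with few exceptions. Of 24 genes of cholesterol synthesis and its control, 20 fell and 1 rose in the outer comparison, with a median of -0.91, beside 15.1% of all genes that fell. In the middle group 1 fell, with a median of -0.13, or 2 with the replicate block, and between the treated groups 21 fell and 1 rose, with a median of -0.76. The genes that did not pass the outer test were Idi1, Hsd17b7 and Srebf2, the last of which encodes the main activator of the pathway, at -0.07 (adjusted p = 0.681). The gene that rose was Ggps1, which makes a nonsterol lipid, at 0.31 (adjusted p = 0.0447), and 12 of its 20 alternatives did not keep that call.

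Tm7sf2, a sterol reductase (chromosome 19, 6062821 to 6068373), had 88.5, 64.0, 49.6, 43.8 and 65.3 CPM in untreated libraries, 40.1 to 43.9 CPM in Fl/+ 4-OHT and 18.5, 22.0, 19.6, 16.6 and 18.0 CPM in Fl/Fl 4-OHT libraries. It fell by 1.70 (SE 0.176, adjusted p = 0.000116), and was the gene of the list that also fell in the middle group, by 0.55 (adjusted p = 0.0442). Mvd, which makes isopentenyl diphosphate from mevalonate, had 92 to 148 CPM in untreated, 88.9 to 119 CPM in Fl/+ 4-OHT and 38.2 to 50.3 CPM in Fl/Fl 4-OHT libraries. Mvd fell by 1.44 (SE 0.147, adjusted p = 0.000110). Fdps, which joins isoprene units, and Nsdhl, a sterol dehydrogenase, fell by 1.27 (SE 0.236, adjusted p = 0.00251) and 1.25 (SE 0.164, adjusted p = 0.000409). For Mvd, Fdps and Nsdhl the Fl/Fl range lay below those of both Fl/+ groups. In the middle group their differences were -0.30, -0.11 and -0.22, with adjusted p of 0.199, 0.776 and 0.372.

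The promoters of 4 of these genes are shown in the same way, those with the largest falls whose RefSeq start lies within 50 bases of the annotated gene start. They are shown because the list moved together. Capitals mark CCAAT, the box bound by NF-Y, read on either strand (ATTGG on the strand shown is a match on the other). Of 18 promoters of the list, 16 (88.9%) held CCAAT, against 38.6% of all 11028, 36.6% of those called higher and 41.8% of those called lower. The letters TCACNCCA, part of the sterol regulatory element, were in 3 of the 18 (16.7%) and in 3.51% of all, and GGGCGG in 16 of the 18 (88.9%). These matches describe the sequences and are not measured sites.
Mvd (chr8:122443373-122443672, minus strand): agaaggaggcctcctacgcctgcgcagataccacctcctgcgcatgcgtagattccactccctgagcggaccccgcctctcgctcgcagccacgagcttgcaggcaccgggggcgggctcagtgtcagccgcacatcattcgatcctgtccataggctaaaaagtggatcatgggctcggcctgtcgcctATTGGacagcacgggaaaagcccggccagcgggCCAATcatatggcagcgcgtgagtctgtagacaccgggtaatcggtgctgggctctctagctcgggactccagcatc
Nsdhl (chrX:72918271-72918570, plus strand): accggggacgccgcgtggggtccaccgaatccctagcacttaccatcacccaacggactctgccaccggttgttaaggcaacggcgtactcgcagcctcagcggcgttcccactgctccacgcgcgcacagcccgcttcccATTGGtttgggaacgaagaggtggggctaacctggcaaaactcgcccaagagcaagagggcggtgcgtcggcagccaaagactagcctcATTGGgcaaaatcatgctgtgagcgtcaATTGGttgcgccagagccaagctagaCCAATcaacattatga
Hmgcs1 (chr13:119690101-119690400, plus strand): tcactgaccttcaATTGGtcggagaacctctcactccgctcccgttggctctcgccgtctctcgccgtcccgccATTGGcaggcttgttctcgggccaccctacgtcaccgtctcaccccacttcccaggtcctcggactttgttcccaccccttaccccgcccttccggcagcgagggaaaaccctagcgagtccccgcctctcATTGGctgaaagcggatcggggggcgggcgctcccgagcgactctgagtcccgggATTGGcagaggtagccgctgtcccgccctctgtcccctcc
Mvk (chr5:114444019-114444318, plus strand): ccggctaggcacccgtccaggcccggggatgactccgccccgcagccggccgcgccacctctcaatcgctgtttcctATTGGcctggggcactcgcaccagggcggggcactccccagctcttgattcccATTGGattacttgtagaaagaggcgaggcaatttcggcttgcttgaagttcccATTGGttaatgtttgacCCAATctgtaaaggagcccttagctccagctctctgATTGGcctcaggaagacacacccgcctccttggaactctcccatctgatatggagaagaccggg

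Hmgcs1, the synthase that starts the mevalonate pathway, was the most abundant of these and fell by 1.04 (SE 0.183, adjusted p = 0.00186), from 1056 to 2131 CPM in untreated to 558 to 899 CPM in Fl/Fl 4-OHT libraries. Mvk, the mevalonate kinase, fell by 1.02 (SE 0.162, adjusted p = 0.00107). Of 6 sterol export genes 1 rose and 1 fell in the outer comparison, 2 fell and 0 rose in the middle group, or 3 and 0 with the replicate block, and 4 rose and 0 fell between the treated groups, with a median of 0.71. Apoe, which carries cholesterol between cells, fell by 1.18 in the outer comparison and by 1.58 in the middle group, and Nr1h3, the sterol sensor LXR alpha, rose by 1.02, a call that was lost without Fl/Fl 37 and 39 (0.73, adjusted p = 0.0790).

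**Figure D4:**
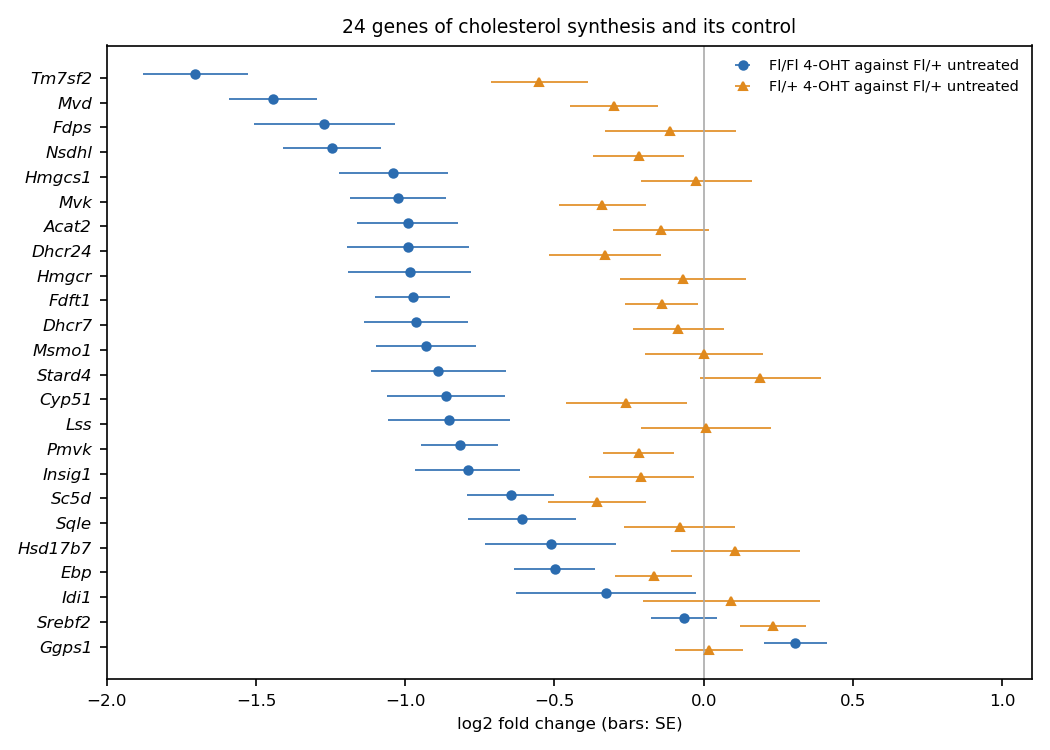
Log2 fold changes (x axis, bars SE) of 24 genes of cholesterol synthesis and its control, with Fl/Fl 4-OHT against untreated Fl/+ cultures in blue and Fl/+ 4-OHT against untreated in orange. In the outer comparison 20 genes fell, down to -1.70 for Tm7sf2, whereas 1 fell in the middle group.

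Of 16 neuron markers tested, 7 fell, 0 rose and 9 did not pass the test, with a median of -0.40, beside 15.1% of all genes that fell. In the middle group 1 rose and 1 fell, with a median of 0.22, and 5 rose and 3 fell with the replicate block. Between the treated groups 4 fell and 0 rose, with a median of -0.57. Dcx, a microtubule protein of migrating young neurons, had 32.5, 27.8, 61.9, 49.1 and 26.9 CPM in untreated, 16.4 to 77.0 CPM in Fl/+ 4-OHT and 6.28, 9.48, 10.5, 8.97 and 3.47 CPM in Fl/Fl 4-OHT libraries. Dcx fell by 2.34 (SE 0.328, adjusted p = 0.000572), with a middle-group difference of 0.17 (adjusted p = 0.804). Gad1, which makes GABA, fell by 1.70 in the outer comparison and by 1.04 in the middle group. Tubb3, the neuronal beta tubulin, fell by 1.40. Rbfox3, the neuronal splicing factor NeuN, fell by 1.69, a call that was lost without Fl/Fl 37 or Fl/Fl 28. Without untreated library 26 Rbfox3 fell by 0.98, and it fell by 1.05 in the middle group with the replicate block (adjusted p = 0.0196). Of 16 tubulins 4 fell and 2 rose, with Tubb2b falling by 0.95 and Tuba8 and Tubb6 rising by 2.58 and 1.04. In the middle group 1 rose and 1 fell, or 5 and 1 with the replicate block. Tuba8 and Tubb6 rose there with that block, by 1.02 and 0.76 (adjusted p = 0.0479 and 0.00486).

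St8sia2 and March1 also belonged to this set. St8sia2, which adds polysialic acid to NCAM on migrating neuroblasts, fell by 2.42 (SE 0.389, adjusted p = 0.00115), with a middle-group difference of -0.91 (adjusted p = 0.0585). With the replicate block St8sia2 also fell in the middle group, by 0.94 (adjusted p = 0.0237), and was lower in all 5 pairs. March1, a membrane-bound ubiquitin ligase (chromosome 8, 65617900 to 66471637), had 3.68 to 13.0 CPM in untreated, 5.58 to 15.2 CPM in Fl/+ 4-OHT and 0.754 to 1.93 CPM in Fl/Fl 4-OHT libraries. It fell by 2.48 (SE 0.393, adjusted p = 0.00108), with 0.26 (adjusted p = 0.708) in the middle group.

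The largest rises of this set were Sprr1a, Matn1 and Emp3, none of which was abundant enough to be tested in the middle group. For Sprr1a and Emp3 all Fl/+ 4-OHT libraries lay above all untreated ones, so that the middle group showed part of these rises. Sprr1a, a cornified envelope protein also induced in injured neurons, had no more than 1 count in any untreated library, 0.158 to 0.936 CPM in Fl/+ 4-OHT and 1.80, 0.918, 0.655, 18.8 and 6.49 CPM in Fl/Fl 4-OHT libraries. Its Fl/Fl mean was 52.8-fold higher than 3 counts in an untreated library of average depth, and rested largely on Fl/Fl 37, without which it was 2.47 CPM. Matn1, a cartilage matrix protein, was at 0 to 0.350 CPM in untreated, 0.0317 to 0.514 CPM in Fl/+ 4-OHT and 0.903 to 8.03 CPM in Fl/Fl 4-OHT libraries, a rise of 4.67 (SE 0.806, adjusted p = 0.00171), or 5.38 without untreated library 26. Emp3, a membrane protein of the PMP22 family, had 0.0736 to 0.289 CPM in untreated, 0.316 to 0.811 CPM in Fl/+ 4-OHT and 1.18 to 7.62 CPM in Fl/Fl 4-OHT libraries. It rose by 3.97 (SE 0.624, adjusted p = 0.00104), and by 3.21 without Fl/Fl 37.

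Gli1, a transcription factor and target of the Hedgehog pathway, had 0.362, 0.558, 0.175, 0.308 and 0.0736 CPM in untreated libraries and 0.176 to 0.381 CPM in Fl/+ 4-OHT libraries. It had 1.86 to 3.70 CPM in Fl/Fl 4-OHT libraries, above all Fl/+ libraries, and was too low for the test in the middle group. Gli1 rose by 3.18 (SE 0.409, adjusted p = 0.000358) in the outer comparison and by 3.27 (adjusted p = 4.56e-05) between the treated groups. Of 12 Hedgehog genes tested 3 rose and 2 fell (41.7%, beside 30.7% of all genes), with a median of 0.03, and the count of 5 was 3 when at least 10 counts were required in every library. The ligand Shh rose by 1.63, a call that was lost without any 1 of untreated libraries 19, 24 and 26 and Fl/Fl 28 and 37, while the rise was 2.38 without untreated library 35. The coreceptor Gas1 rose by 0.50 (adjusted p = 0.00414), and the coreceptor Boc fell by 0.59, as it did in the middle group, by 0.64.

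Interferon response genes rose at 11 of 21 and fell at 1, with a median of 0.64, beside 15.7% of all genes that rose. For the middle group 17 were tested, 0 rose and 1 fell, with a median of 0.24, or 4 and 3 with the replicate block, and between the treated groups 8 rose and 1 fell. The members with the largest rises were low in all groups. Usp18, a protease that removes ISG15, had 0.210 to 0.868 CPM in untreated and 0.870 to 2.06 CPM in Fl/Fl 4-OHT libraries and rose by 2.04 (SE 0.407, adjusted p = 0.00363). Oasl2 and Ifit1, antiviral RNA-binding proteins, rose by 2.03 and 1.62. Isg15, a ubiquitin-like modifier, rose by 1.17 (adjusted p = 0.0457), a call that 13 of 19 alternatives did not keep. The member that fell was B2m, the light chain of MHC class I molecules, by 0.57 and by 0.53 in the middle group. Without Fl/Fl 37 and 39 the list count of 12 was 6.

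Myc targets and ribosome biogenesis genes fell at 8 of 22 and rose at none, with a median of -0.28. Between the treated groups 16 fell and 0 rose, with a median of -0.41, and in the middle group 2 rose and 0 fell, with a median of 0.05, or 4 and 0 with the replicate block. Gnl3, a nucleolar GTPase of stem cells, had 55.1 to 76.9 CPM in untreated, 50.9 to 86.2 CPM in Fl/+ 4-OHT and 35.8 to 45.8 CPM in Fl/Fl 4-OHT libraries, a fall of 0.72 (SE 0.106, adjusted p = 0.000756). The nucleolar protein Npm1 fell by 0.68, and the snoRNP proteins Nop58 and Nop56 fell by 0.56 and 0.55. Of 10 genes of the Myc family and its partners 1 rose and 5 fell. Myc itself rose by 0.66 (adjusted p = 0.000981), its antagonists Mxd1 and Mnt fell by 1.28 and 0.78, and its paralog Mycl fell by 0.72. The call of Mycl was lost with sex as a covariate and without Fl/Fl 39 (-0.62, adjusted p = 0.0576). It was also lost without Fl/Fl 37 and 39 (-0.64, adjusted p = 0.0762). With the replicate block Mxd1 and Mycl fell in the middle group by 0.51 and 0.56 (adjusted p = 0.0299 and 0.0109).

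Other subunits of HAT complexes with Trrap were also measured. Of 31 tested, 3 rose, 8 fell and 20 did not pass the test, with a median of -0.07. The share called, 35.5%, stands beside 30.7% of all genes, and the list count of 11 was 6 without Fl/Fl 37 and 39. For Fl/+ 4-OHT against untreated cultures 0 were called, or 2, both lower, with the replicate block. Usp22, the deubiquitinase of the SAGA complex, had 240 to 289 CPM in untreated, 267 to 316 CPM in Fl/+ 4-OHT and 142, 157, 156, 198 and 158 CPM in Fl/Fl 4-OHT libraries. Usp22 fell by 0.67 (SE 0.0978, adjusted p = 0.000714). The TIP60 complex subunits Morf4l2, Mbtd1 and Vps72 fell by 0.68, 0.58 and 0.60. With the replicate block Vps72 also fell in the middle group, by 0.36 (adjusted p = 0.0301).

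A few named genes moved in steps, called in the same direction in all 3 comparisons. Hes5, a Notch target that represses differentiation (chromosome 4, 154960923 to 154962371), had 77.0, 106, 96.7, 27.2 and 60.5 CPM in untreated libraries. It had 14.3 to 31.2 CPM, with a mean of 20.1 CPM, in Fl/+ 4-OHT and 12.8, 12.7, 10.3, 5.06 and 8.65 CPM in Fl/Fl 4-OHT libraries. Hes5 fell by 2.88 (SE 0.363, adjusted p = 0.000322) in the outer comparison, by 1.87 in the middle group and by 1.00 between the treated groups. Cplx1, which binds the synaptic fusion machinery, had means of 39.6 ± 12.8, 21.6 ± 6.96 and 4.39 ± 1.24 CPM (SD, n = 5 each) in untreated, Fl/+ 4-OHT and Fl/Fl 4-OHT libraries, and fell by 3.16 (SE 0.275, adjusted p = 5.48e-05).

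Syt13, a member of the synaptotagmin family, rose in steps from 0.0385 to 0.326 CPM in untreated to 1.33 to 6.24 CPM in Fl/+ 4-OHT and 4.36 to 14.2 CPM in Fl/Fl 4-OHT libraries, by 5.52 (SE 0.507, adjusted p = 6.67e-05) in the outer comparison. Erbb3, a neuregulin receptor, rose from 0.109 to 0.490 CPM in untreated to 0.672 to 2.16 CPM and 3.42 to 14.2 CPM, by 4.78 (SE 0.582, adjusted p = 0.000264), and by 4.27 without Fl/Fl 37.

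Of 17 Notch pathway genes 4 fell and 2 rose (35.3%, beside 30.7% of all genes), with a median of -0.11. Nrarp, a feedback regulator, fell by 1.47 in the outer comparison and by 0.97 in the middle group. The ligand Dll1 fell by 0.89 in the outer comparison, and in the middle group by 0.37 with the replicate block (adjusted p = 0.00633). The ligand Jag2 rose by 1.30, a call lost without untreated library 19 or 35 or without Fl/Fl 28, 29 or 37. The list count of 6 was 3 without untreated library 19 or Fl/Fl 37. Of 15 neural stem cell markers 6 fell and 1 rose, with a median of -0.21, and the count of 7 was 4 without Fl/Fl 37 and 39. In the middle group 4 fell and 2 rose, with a median of -0.11, or 5 and 3 with the replicate block. Besides Hes5, Fabp7, a lipid-binding protein of radial glia, fell by 0.91 in the outer comparison and Sox2, a stem cell transcription factor, by 0.76. With the replicate block Sox2 also fell in the middle group, by 0.39 (adjusted p = 0.0382). Sox2 had 285 to 509 CPM in untreated and 200 to 280 CPM in Fl/Fl 4-OHT libraries. Tnc, an extracellular matrix protein of the niche, rose by 1.26 in the outer comparison and by 1.43 in the middle group (adjusted p = 0.00243). The outer call of Tnc was lost without Fl/Fl 37 and 39 (0.70, adjusted p = 0.0876).

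The outer comparison does not show changes in which the middle group stood apart from both other groups. 512 genes were called in Fl/+ 4-OHT against untreated cultures and between the treated groups but not in the outer comparison, 229 of them higher and 283 lower in the middle group. Opposite directions in the 2 comparisons follow from this choice. With the replicate block the number was 898. Adam19, a membrane protease that sheds growth factors, had 26.1, 23.2, 17.7, 18.0 and 27.9 CPM in untreated, 98.5, 73.7, 79.0, 55.8 and 62.6 CPM in Fl/+ 4-OHT and 15.6, 23.9, 17.4, 12.3 and 12.6 CPM in Fl/Fl 4-OHT libraries. The middle group lay above both others, which overlapped. Adam19 had a log2 fold change of 1.71 (SE 0.179, adjusted p = 0.000398) in the middle group, -2.16 (SE 0.207, adjusted p = 8.9e-05) between the treated groups and -0.45 (SE 0.204, adjusted p = 0.113) in the outer comparison, where it was called without Fl/Fl 28 (-0.63, adjusted p = 0.0315).

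Stbd1, a glycogen-binding protein, gave 2.39, -1.45 and 0.94 (adjusted p = 0.0682) in the same order of comparisons, and 4 of 20 alternatives called it in the outer one. Kirrel2, an adhesion molecule of the nephrin family, had 2.96 to 8.16 CPM in untreated, 0.950 to 2.01 CPM in Fl/+ 4-OHT and 4.04 to 12.3 CPM in Fl/Fl 4-OHT libraries, with 2.07 (SE 0.350, adjusted p = 0.00154) between the treated groups and 0.07 (adjusted p = 0.910) in the outer comparison. Sstr2, a somatostatin receptor, gave -1.81, 2.41 and 0.60 (adjusted p = 0.272), and was called in the outer comparison with the number series as a covariate (0.75, adjusted p = 0.0416).

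Of 20 genes of mitosis and the spindle checkpoint, 2 fell and 0 rose in the outer comparison, with a median of -0.52, although 15 fell between the treated groups, with a median of -0.92. In the middle group 1 fell, Mad1l1, a checkpoint protein, and the median was 0.37, whereas 8 rose and 1 fell with the replicate block. The members that fell in the outer comparison were the kinetochore proteins Ndc80, by 1.03 (adjusted p = 0.0254), and Cenpf, by 0.89 (adjusted p = 0.0350). The count of 2 was 0 without untreated library 36, Fl/Fl 29 or Fl/Fl 37, 1 without untreated library 19 or 24 and 7 without untreated library 26. It was 10 with sex as a covariate and without Fl/Fl 39, and 0 without Fl/Fl 37 and 39. The summed level of the list was 800.5 to 2455 CPM in untreated, 1359 to 2204 CPM in Fl/+ 4-OHT and 746 to 1497 CPM in Fl/Fl 4-OHT libraries. Of 23 genes of DNA replication 1 rose, E2f1, and 1 fell, Rrm2, with a median of -0.19, and the count of 2 was 0 without Fl/Fl 28 and 1 without untreated library 24 or without Fl/Fl 29, 37 or 39. With sex as a covariate and without Fl/Fl 39 it was 6, and without Fl/Fl 37 and 39 it was 0. Of 7 cell cycle inhibitors 1 rose and 2 fell, Cdkn1a rising as given above and Cdkn1b, the p27 inhibitor, falling by 0.71.

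**Figure D5:**
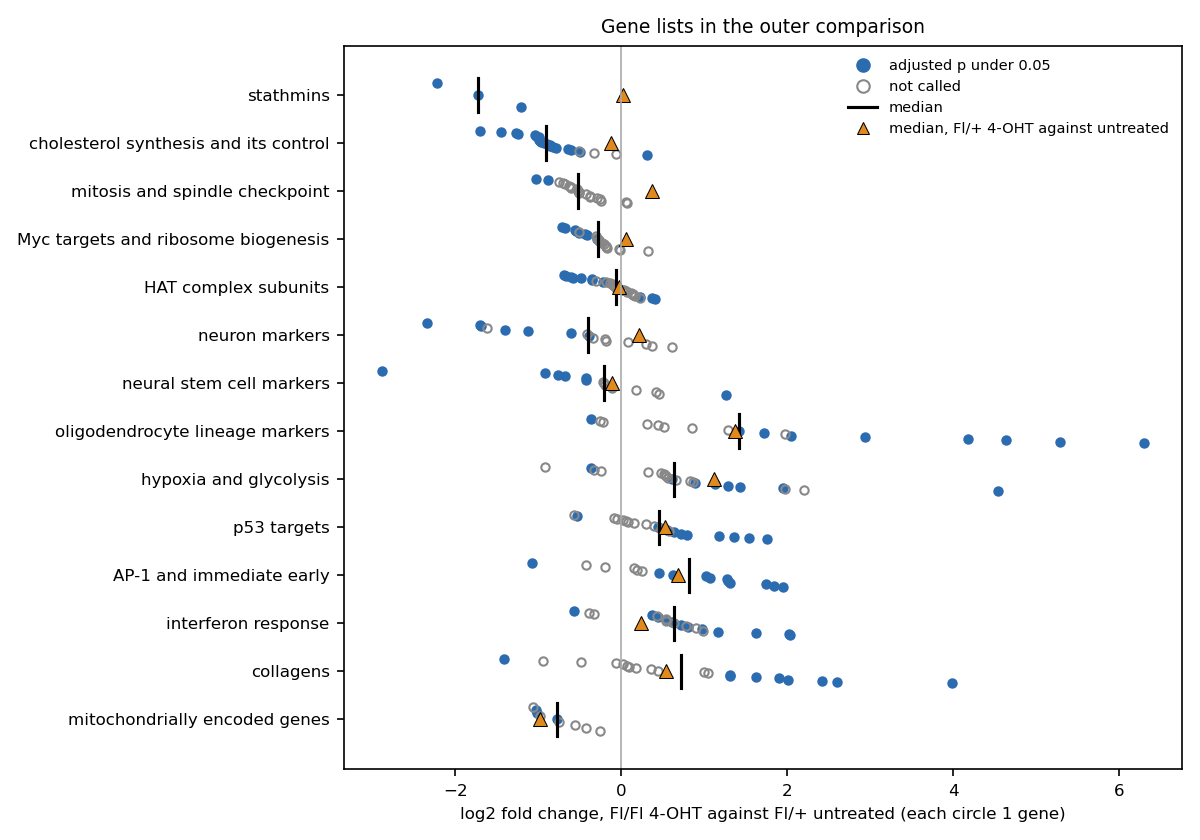
Each circle is the log2 fold change (x axis) of 1 gene in Fl/Fl 4-OHT against untreated Fl/+ cultures, filled where the adjusted p was under 0.05; the black line is the median of the list, and the orange triangle the median of the same list in Fl/+ 4-OHT against untreated cultures. The triangle lies near the line for oligodendrocyte markers (1.37 and 1.42) and p53 targets (0.53 and 0.45), and near 0 for stathmins (0.02 and -1.73) and cholesterol genes (-0.13 and -0.91).

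Of 16 genes of the integrated stress response 0 rose and 3 fell, among them the cystine transporter Slc7a11, by 1.99 and by 1.62 in the middle group, and Atf4, the factor that drives the response, by 0.69. That count was 5 without untreated library 36, and also with DESeq2 or with all 15 libraries in 1 fit. Of 17 BMP and Id genes 2 rose and 3 fell in the outer comparison. Bmp6 rose by 2.89, by 2.25 without Fl/Fl 37, and by 1.83 in the middle group (adjusted p = 0.00532). Id4, an inhibitor of neural differentiation factors, fell by 1.05, and by 1.54 in the middle group (adjusted p = 0.00318). In the middle group 1 gene of the list rose and 3 fell, or 3 and 3 with the replicate block. The outer count of 5 was also 3 when at least 10 counts were required in every library. Of 11 genes of DNA methylation 1 rose and 3 fell (36.4%, beside 30.7% of all genes), and the count of 4 was 1 without Fl/Fl 37 and 39 and 7 with sex as a covariate and without Fl/Fl 39. In this list Dnmt3b, a de novo methyltransferase, and Tet2, a dioxygenase that removes methylation, each fell by 0.70. Of 8 estrogen receptors and targets, listed because 4-OHT binds estrogen receptors, 2 rose and 1 fell in the outer comparison, and 4 rose in the middle group. The outer count of 3 was 1 without Fl/Fl 37 and 39. Gper1 and Esrrg, both known to bind 4-OHT, rose by 1.01 and 1.03, and by 1.23 and 1.27 in the middle group, and Esr1 was at -0.20 (adjusted p = 0.515).

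Markers of other cell types differed in level. Of 10 microglia and macrophage markers 8 had no more than 3 counts in any of the 15 libraries, and none was abundant enough to be tested in the outer comparison. Their summed level was 0.0698 to 0.616 CPM in untreated and 0.688 to 2.01 CPM in Fl/Fl 4-OHT libraries. P2ry12, a purine receptor of microglia, had 0.0349 to 0.253 CPM in untreated and 0.272 to 1.04 CPM in Fl/Fl 4-OHT libraries, and the count of 0 called was 1, this gene, without any 1 of the untreated libraries or without Fl/Fl 28. The microglial marker Aif1 reached 0.0387 CPM, the endothelial marker Cldn5 0.0338 CPM and the fibroblast marker Dcn 0.0770 CPM at most. Of 6 endothelial and mural markers tested 2 rose, Rgs5 by 2.09 and Vwf by 1.01, and of 4 fibroblast and meningeal markers 1 fell, Ranbp3l. The endothelial count was 1 without untreated library 19, 26 or 36 or without Fl/Fl 28 or 37. It was also 1 when at least 10 counts were required in every library. The fibroblast count was 0 with that filter, or without untreated library 19 or 26 or Fl/Fl 39, and 3 with no count filter. The summed levels were 19.3 to 37.6 CPM in untreated and 31.0 to 62.8 CPM in Fl/Fl 4-OHT libraries for endothelial and mural markers. Of 5 ependymal markers tested 3 rose, led by Ccdc153 and Rsph1, ciliary genes, by 2.44 (3.09 without untreated library 35) and 2.10, and Foxj1, the regulator of motile cilia, by 1.09. Pifo and Tmem212 were at 0 in all libraries.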

How the data were processed

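Poly(A) RNA of 15 cultures was sequenced, and 10 libraries form the outer comparison. The deposited file holds whole-number counts of reads per gene for 53801 genes, which the authors made with STAR 2.5.4b and featureCounts 1.5.0 on GRCm38 after bcl2fastq 1.8.4. Reads that map to several places are not part of gene counts of this kind, so close paralogs may be undercounted. From the counts, differences were tested here with edgeR 4.0.16 in R 4.3.3 (TMM scaling, filterByExpr with a minimum count of 10, quasi-likelihood F test, Benjamini-Hochberg adjustment over all genes tested, threshold 0.05) in each pair of groups. Log2 fold changes and their standard errors come from these fits, and CPM from TMM over all 15 libraries. Trrap was also tested by an exact permutation test on log2(CPM + 0.5) over 252 arrangements. Totals of 25720034 to 32187097 counts set the precision. The steps were tested on simulated data. Gene positions and symbols come from GENCODE M21, promoters from RefSeq.

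Genes were named by rule: Trrap, then the 6 largest rises and 6 largest falls among called genes with groups that did not overlap and a mean of 1 CPM or more, then the 3 largest each way of the genes shared with the middle group and of those shared with the comparison of treated groups, the 2 largest each way called in all 3 comparisons and of those called only around the middle group, up to 4 members per list, and Sp1. One of the falls and some list members are not reported here, and the lists were counted without them. List members beyond this limit were picked with their values in view. The members and the lists were chosen with earlier results of these data known. Same-numbered Fl/+ libraries deviated together from their group means (r 0.204 to 0.586 over 15435 genes, against -0.489 to 0.317 for different numbers), so the numbers were taken to pair the Fl/+ cultures. The groups of the outer comparison share no numbers, and no block was possible there. Alternatives were DESeq2 1.42.0, its size factors, library size alone, other count filters, all 15 libraries in 1 fit, sex or number series as a covariate, the replicate block and each library left out. A sex covariate without Fl/Fl 39, and Fl/Fl 37 and 39 both left out, were added after seeing the data.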

Additional observations from a re-analysis of the deposited data

Results flagged for a closer look

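In 32 of 369 groups of 5 libraries, 8.67%, the highest or lowest library lay apart from the others by Dixon's criterion, which chance meets in about 1 in 20 groups. Of these, 19 were Fl/Fl 37. It was the highest Fl/Fl 4-OHT library for the glial genes Mag (150.6 CPM), Mbp (1013), Mobp (58.6), Gfap (2264) and Clu (545). The same held for the imprinted RNAs H19 (337 CPM) and Rian (8.27), for the growth factor genes Bmp6 (6.50), Hbegf (440) and for Col6a1 (27.1). It also held for Emp3 (7.62 CPM), Esrrg (10.3), Fosl1 (12.6), Mbd2 (88.7), Rgs5 (2.63), Stbd1 (3.09), Stmn4 (18.1) and Usp22 (198), while Dll1 (48.1) was lowest there. Kirrel2 was highest in Fl/Fl 39, at 12.3 CPM.

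In untreated Fl/+ cultures, library 35 was highest for Arc (35.3 CPM) and Shh (3.12), library 24 for Col12a1 (31.9) and H19 (2.72), library 26 for Rbfox3 (14.9), library 36 for Tnfrsf10b (11.3) and library 19 for Usp18 (0.868). In Fl/+ 4-OHT cultures, library 24 was highest for Col12a1 (325 CPM) and Ier3 (102), library 26 for Mycl (86.3) and Tubb2b (1036), and library 36 for Mbp (282).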

How the results depend on the processing

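The count of 4620 genes in the outer comparison ranged from 4200 to 5520 over 8 other settings and from 3700 (without Fl/Fl 28) to 4735 with 1 library left out. The Trrap log2 fold change ranged from -0.87 to -0.76 and from -0.99 (without Fl/Fl 29) to -0.78. For Fl/+ 4-OHT against untreated cultures the count of 2044 was 3170 with the number series as a covariate and 3809 with the replicate block, and ranged from 1271 (without Fl/+ 4-OHT 19) to 2522 with 1 library left out; it was 1311 without Fl/+ 4-OHT 35. The count shared by the outer comparison and that of the treated groups, 2421, was 1548 without Fl/Fl 37 and 39. The cause of these shifts was not tested. With library size alone, 1396 genes were higher and 712 lower in Fl/+ 4-OHT. Of 122 genes named by rule, 92 kept their side of the threshold in every alternative run and 30 changed side in at least 1. No called value changed direction, and 1 value that was not called did, that of Kirrel2, from 0.07 to between -0.40 and -0.04 in 5 alternatives. The replicate block is given beside the middle-group values that it changed. Of the 30, 15 did so only in the alternatives without Fl/Fl 39 that were chosen after seeing the data. Each comparison rests on 10 libraries, and genes near the limit of 3 counts have no fixed fold change.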
